A study of Mus musculus with 48 samples.

Results

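BAF, the mammalian SWI/SNF complex, slides and ejects nucleosomes with the energy of ATP and is needed for pluripotency of mouse embryonic stem cells (mESCs). Its ATPase, SMARCA4 (BRG1), sits on a core of SMARCC, SMARCB1, SMARCE1 and SMARCD proteins, and each complex takes a single SMARCD paralog: SMARCD1 and SMARCD2 are broadly used, whereas SMARCD3 (BAF60C) is best known from heart and muscle development. ACTL6A (BAF53A) is the actin-related subunit that binds the ATPase module, and ARID1A and DPF2 mark the canonical form of the complex. The genes described here were Smarcd1, Smarcd2, Smarcd3, Smarca4, Smarcb1, Smarcc1, Smarce1, Arid1a, Actl6a and Dpf2, 10 of the 55335 genes in the tables. The group was chosen by the RNA-seq fold change of Smarcd3 in Nrde2 knockout cells, already known to be strongly negative, to which other subunits of the complex were added, and all 10 passed the filter on low values in every fit.

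The study depleted NRDE2, a nuclear protein involved in splicing of certain introns, and 2 of its partners, the RNA helicase MTREX and the spliceosome-associated protein CCDC174, in male mESCs of mixed 129 and C57BL/6 background. All lines carried a tamoxifen-inducible Cre recombinase (Cre-ERT2) and were grown as picked clones in serum with LIF and 2i. Nrde2-KO cells were conditional knockouts given 100 nM 4-hydroxytamoxifen for 4 days, Mtrex-KO cells received it for 3 days, and the matching WT groups were the same floxed lines without the drug. In the Ccdc174-dTAG group, endogenous CCDC174 fused to FKBP12F36V was degraded with 500 nM dTAG-13 for 24 h, and the Ccdc174-WT cells carried that fusion too. Nrde2d200 and Nrde2-D174R lines expressed NRDE2 without its amino-terminal residues or with a point mutation that weakens MTREX binding, and received no tamoxifen. A second Nrde2-KO experiment (exp2) and the Ccdc174 experiment each included groups given 0.1 mg/mL cycloheximide (CHX), which blocks translation and nonsense-mediated decay, for 4 h. RNA-seq covered 14 groups and ribosome profiling (Ribo-seq) covered Nrde2-WT and Nrde2-KO cells, with 2 libraries per group labelled as replicates, so a p-value measures the spread between such libraries.

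The 28 RNA-seq libraries held 28683644 to 36272309 reads in genes and the 4 Ribo-seq libraries 3475051 to 5035940. Levels are CPM (counts scaled to a fixed library total) divided by a library factor, and "changed" means a Benjamini-Hochberg adjusted p under 0.01 in limma, over all genes of the fit. As a check of the labels, Nrde2 was at 53.6 and 52.2 CPM in Nrde2-WT exp2 and at 19.96 and 19.7 in Nrde2-KO exp2, and Mtrex fell from 119 and 112 to 46.4 and 41.6 CPM in Mtrex-KO. With CHX, Nrde2 stood at 244 and 226 CPM in the WT and at 259 and 250 in the libraries labelled Nrde2-KO, so a gene-level count, which keeps reads of exons that were not deleted, checks nothing there. A degron acts on protein, so Ccdc174 reads do not check the dTAG groups either. All 10 mESC markers were present, at a summed 3377 to 6867 CPM. Of other cell types, the 8 mesoderm and cardiac markers summed to 2.15 to 12.3 CPM, with Mesp1 and Actc1 below 0.5 CPM in all libraries. Only 3 of these 8 averaged 0.5 CPM or more. The 4 markers of 2C-like cells found in the tables, Zscan4 genes among them, summed to 1.61 to 7.99 CPM in the 8 WT libraries without CHX, to 72.2 and 66.1 in Nrde2-KO exp2 and to 202 and 67.4 in the Mtrex-KO libraries, and their part in the results was not tested.

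In the 8 WT libraries without CHX, Smarcd3 was the least abundant of the genes per length. Its median was 2.01 CPM per kb of exon, with a range of 0.929 to 2.97. Smarce1 followed at a median of 6.16 CPM per kb, then Arid1a at 7.57, Dpf2 at 9.19, Smarcb1 at 11.7, Smarcd1 at 21.9 and Smarcd2 at 24.0. Smarcc1, the scaffold subunit, reached 38.0 CPM per kb, Smarca4 45.6 and Actl6a 64.7. Neighbours in this order overlapped in range between Smarce1 and Arid1a, Arid1a and Dpf2, Smarcd1 and Smarcd2, Smarcc1 and Smarca4, and Smarca4 and Actl6a, whereas Smarcd3 lay below all others. Smarcd3 also varied most between WT lines, 2.52-fold between the lowest group mean, in Ccdc174-WT, and the highest. The other genes differed by at most 1.61-fold between WT groups.

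Smarcd3 (ENSMUSG00000028949) lies on the minus strand at chr5:24590818-24624411 (mm10) and overlaps Chpf2 and Mir671 on the opposite strand, which strand-specific counting separates. Normalized CPM of Smarcd3 were 10.4 and 12.5 in Nrde2-WT and 2.21 and 1.97 in Nrde2-KO, the comparison taken here as the one that chose the genes. In the second experiment they were 11.4 and 15.2 in Nrde2-WT exp2 and 2.37 and 2.20 in Nrde2-KO exp2. Both knockouts kept 18.2% and 17.2% of the WT mean, and no knockout library came near a WT library; in bulk samples, fewer cells with the RNA and less RNA per cell cannot be told apart. In the Ccdc174 lines Smarcd3 was at 5.81 and 4.76 CPM in the WT and at 2.51 and 1.34 after dTAG-13. In the Mtrex lines it was at 8.95 and 10.2 CPM in the WT and at 2.86 and 3.96 in the knockout. The depleted groups again lay wholly below their own WT groups, with 36.4% of the level left after CCDC174 degradation and 35.6% after Mtrex knockout. Nrde2d200 libraries held 6.92 and 6.47 CPM and Nrde2-D174R libraries 6.52 and 8.98, between Nrde2-WT and Nrde2-KO. Raw reads on the gene ranged from 49 to 613 per RNA-seq library. The summed mesoderm and cardiac markers, most of them near the floor, were also lower in Mtrex-KO, at 2.16 and 2.15 CPM against 8.89 and 11.3. In Nrde2-KO exp2 they were lower too, at 6.59 and 5.37 against 8.54 and 8.74. The Ccdc174 groups overlapped, at 10.3 and 8.501 against 12.3 and 9.48. The part of these markers in the Smarcd3 values was not tested.

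**Figure D1:**
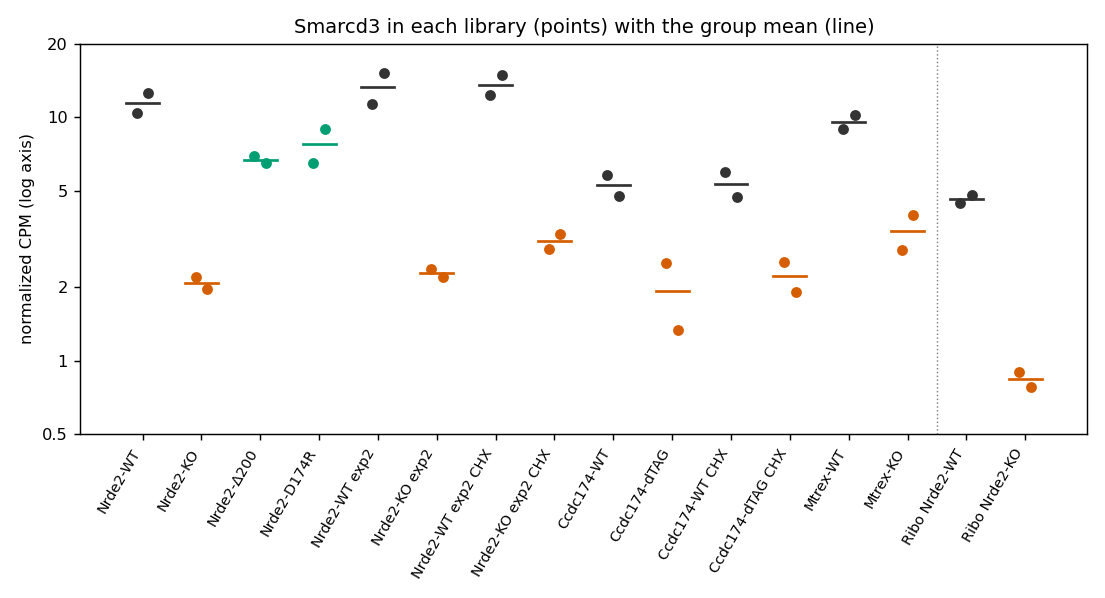
Normalized CPM of Smarcd3 (log axis) in each library (points) with the group mean (line), for 14 RNA-seq groups and, right of the dotted line, 2 Ribo-seq groups; black marks WT groups, green the Nrde2 mutants and orange the depleted groups. Every depleted group lies below its own WT group, and the Ccdc174-WT libraries, at 5.81 and 4.76 CPM, lie below the other WT libraries of RNA-seq without CHX.

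Ordered by mean, the RNA-seq groups ran from 13.6 CPM in Nrde2-WT exp2 CHX to 1.92 in Ccdc174-dTAG. Of the 13 neighbouring pairs in this order, 9 overlapped and 4 did not. The gaps lay below Nrde2-WT, below Nrde2d200, below Ccdc174-WT and below Nrde2-KO exp2 CHX. All WT and mutant groups stood above the gap between Ccdc174-WT and Mtrex-KO, and all 6 depleted groups below it.

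The choice of the genes names Nrde2 knockout without an experiment. The first Nrde2-KO comparison was taken as the one that chose them and is given without a test: Smarcd3 was lower by 2.32 on the log2 scale, Smarca4 by 0.98 and Actl6a by 0.69, and the remaining members differed by between -0.36 and 0.29. The second experiment has its own WT libraries but may also have been in view when the genes were chosen. In it the log2 fold change of Smarcd3 was -2.40 (SE 0.24, limma adjusted p = 1.0e-06). This test may rest on the fall that chose the group, so it is not separate support. The log2 fold change of Smarcd3 was -1.40 after CCDC174 degradation (SE 0.24, limma adjusted p = 0.00069) and -1.44 in Mtrex-KO (SE 0.24, limma adjusted p = 3.9e-05). In the Ccdc174 lines the value was -0.997 without dTAG replicate 2 (adjusted p = 0.022) and -1.26 without WT replicate 1 (adjusted p = 0.019), so each of these libraries decides that call. The fall in Nrde2-KO exp2 was larger than in Mtrex-KO by 0.96 and larger than in Ccdc174-dTAG by 1.01 (SE 0.33 each), but the tests of these differences, added after the data were seen, gave limma adjusted p of 0.025 and 0.11. The first was 0.54 (adjusted p = 0.20) on the CPM as deposited, and the second was 0.61 without Ccdc174-dTAG replicate 1 and 1.41 without replicate 2. Smarcd3 also differed between the WT groups, with means of 13.3 CPM in Nrde2-WT exp2, 9.59 in Mtrex-WT and 5.28 in Ccdc174-WT. In their depleted groups the means were 2.29, 3.41 and 1.92 CPM in that order. The treatments differed in length. The paper reports minor expression effects of tagging CCDC174 and lower NRDE2 levels after Mtrex knockout. The part of WT level, treatment length, tagging and NRDE2 loss in these differences was not tested.

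For the mutants, which share the Nrde2-WT libraries with the comparison that chose the genes, the log2 fold change of Smarcd3 was -0.75 in Nrde2d200 (95% interval -1.25 to -0.25, limma adjusted p = 0.038) and -0.56 in Nrde2-D174R (-1.06 to -0.06, limma adjusted p = 0.23). Neither passed 0.01 in this fit, while Nrde2d200 passed in DESeq2 (-0.77, adjusted p = 0.0094) and in limma on its own groups alone (adjusted p = 0.0011). Leaving out any single library moved the Nrde2-D174R value between -0.79, without Nrde2-D174R replicate 2, and -0.34, without replicate 1. Compared directly, Nrde2d200 and Nrde2-D174R differed by -0.19 (-0.68 to 0.31, limma adjusted p = 0.68).

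Of the paralogs of Smarcd3, Smarcd1 did not pass the threshold in any RNA-seq depletion without CHX and Smarcd2 did so in Mtrex-KO. Smarcd1 was at 91.0 and 106 CPM in Nrde2-WT exp2 and at 73.1 and 72.9 in Nrde2-KO exp2, a log2 fold change of -0.43 (limma adjusted p = 0.0103), just outside the threshold that it passed in edgeR (0.0091) and DESeq2 (0.0036). Smarcd2 was at 86.4 and 79.4 against 71.4 and 63.0 CPM, or -0.30 (limma adjusted p = 0.017). In Mtrex-KO, Smarcd2 fell from 73.9 and 85.6 to 50.1 and 55.05 CPM, or -0.60 (SE 0.09, limma adjusted p = 1.6e-05), while Smarcd1 held 126 and 100 CPM against 104 and 97.1 (log2 fold change 0.16, limma adjusted p = 0.24). After CCDC174 degradation the log2 fold changes were -0.26 for Smarcd1 and 0.04 for Smarcd2, with limma adjusted p of 0.18 and 0.86.

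As a share of the Smarcd RNA per kb, Smarcd3 was a minor form everywhere. It made up 4.53% and 5.19% in Nrde2-WT, 4.54% and 5.78% in Nrde2-WT exp2, 3.62% and 4.00% in Mtrex-WT and 2.22% and 1.93% in Ccdc174-WT. In Nrde2-KO exp2 its share was 1.20% and 1.19%, in Mtrex-KO 1.22% and 1.88%, and in Ccdc174-dTAG 1.02% and 0.580%. Smarcd2 was the larger form in the Ccdc174 lines, with 56.4% and 60.02% in Ccdc174-WT. Smarcd1 was the larger in the Mtrex lines, with 53.7% and 48.3% in Mtrex-WT (Smarcd2 42.7% and 47.7%) and 68.3% and 60.8% in Mtrex-KO. Sums over the Smarcd genes were 48.9 and 51.4 CPM per kb in Nrde2-WT exp2 and 38.5 and 36.1 in Nrde2-KO exp2.

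**Figure D2:**
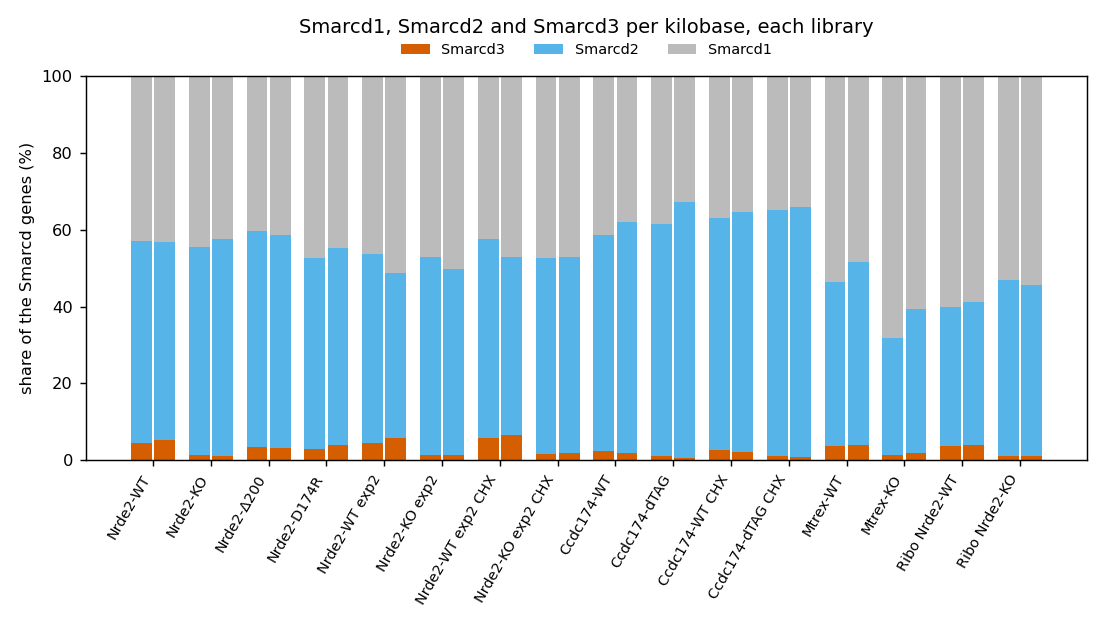
Shares (%) of Smarcd1, Smarcd2 and Smarcd3 in their summed level per kilobase (exon length for RNA-seq, coding length for Ribo-seq), each bar being 1 library and each pair of bars a group. Smarcd3 takes 1.93% to 5.78% in the WT libraries without CHX and 0.580% to 1.88% in the depleted RNA-seq groups without CHX.

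NRDE2 and CCDC174 act with the spliceosome, so the 5′ splice sites of these genes are shown, read from GRCm38 (the genome mm10 names) for the principal GENCODE M21 transcript. Each site is the last 3 exon bases and first 6 intron bases, compared without gaps with CAGGTAAGT, the complement of bases 3 to 11 of U1 snRNA (Rnu1a1), and read on the transcript strand only. The transcripts of Smarcd1, Smarcd2 and Smarcd3 each have 12 introns. The sites of Smarcd3 with the fewest matches, 5 of 9, are those of introns 4, 10 and 11, and are set beside the same-numbered introns of the paralogs, with mismatches in capitals.
Smarcd3 intron 4 (chr5:24595846-24595951, minus strand): AaggtGCCt
Smarcd1 intron 4 (chr15:99703861-99704330, plus strand): AaggtaaCA
Smarcd2 intron 4 (chr11:106266693-106266890, minus strand): ACggtaTAt
Smarcd3 intron 10 (chr5:24593348-24593636, minus strand): AaggtGCgG
Smarcd1 intron 10 (chr15:99709417-99711092, plus strand): AaggtaGgG
Smarcd2 intron 10 (chr11:106264556-106264671, minus strand): AaggtGagt
Smarcd3 intron 11 (chr5:24593119-24593224, minus strand): AaggtGaAG
Smarcd1 intron 11 (chr15:99711216-99712158, plus strand): AaggtaGgA
Smarcd2 intron 11 (chr11:106264297-106264432, minus strand): AaggtaTAC
Smarcd3 thus has 3 sites of 12 with 5 or fewer matches, Smarcd2 has 2 (introns 4 and 11) and Smarcd1 none, its lowest being 6. Among the other members such sites number 9 of 33 in Smarca4, 3 of 8 in Smarcb1, 4 of 28 in Smarcc1, 2 of 10 in Smarce1, 1 of 19 in Arid1a, 2 of 11 in Dpf2 and 4 of 13 in Actl6a, including the site with the fewest matches of all members, 3 of 9, at intron 5 (chr3:32715514-32718030, plus strand): GGCgtaTCC. The background pooled 146169 sites of 12625 expressed protein-coding genes. It took all their protein-coding transcripts in the GENCODE basic set, not the principal one alone as for the members. Of these sites 17.3% had 5 or fewer matches and 0.559% had 3 or fewer. A site with 5 or fewer was held by 73.6% of these genes, so most held such a site, though alternative transcripts can raise that share. The tables count reads per gene, and splicing of these introns was not measured here.

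Smarca4 (ENSMUSG00000032187, chr9:21616169-21704230, plus strand, mm10), the ATPase, and Actl6a (ENSMUSG00000027671, chr3:32706298-32726973, plus strand) were lower with Smarcd3 in each depletion. Smarca4 was at 327 and 340 CPM in Nrde2-WT exp2 and at 163 and 151 in Nrde2-KO exp2. It was at 351 and 304 CPM in Ccdc174-WT and at 210 and 150 in Ccdc174-dTAG. About 47.1% and 54.9% of the WT mean remained, and the groups did not overlap. The log2 fold changes were -1.09 in Nrde2-KO exp2 (SE 0.12, limma adjusted p = 4.7e-06) and -0.88 in Ccdc174-dTAG (SE 0.12, limma adjusted p = 0.00010). In Mtrex-KO, Smarca4 was at 235 and 210 CPM against 286 and 259, a log2 fold change of -0.29 (limma adjusted p = 0.043). The fall was smaller there than in Nrde2-KO exp2 by 0.79 (SE 0.17, limma adjusted p = 0.0012), but the difference was 0.34 (adjusted p = 0.12) on the CPM as deposited. Between the mutants, Smarca4 was at 196 and 207 CPM in Nrde2d200 and at 306 and 292 in Nrde2-D174R, a log2 difference of -0.57 (SE 0.12, limma adjusted p = 0.0070). That call was lost without any one of the 4 libraries, with adjusted p from 0.034 to 0.086.

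Actl6a fell in all 3 depletions. It was at 261 and 303 CPM in Nrde2-WT exp2 and at 171 and 181 in Nrde2-KO exp2, at 254 and 249 against 172 and 166 in the Ccdc174 lines, and at 231 and 256 against 96.0 and 129 in the Mtrex lines. In each line the depleted libraries lay below the WT libraries, and Mtrex-KO replicate 1 held the lowest RNA-seq value of the gene. The log2 fold changes of Actl6a were -0.68 (SE 0.12, limma adjusted p = 0.00048), -0.58 (SE 0.12, limma adjusted p = 0.0046) and -1.13 (SE 0.12, limma adjusted p = 3.4e-07) in that order. The value in Ccdc174-dTAG ranged from -0.60 to -0.55 when any single library was left out, with adjusted p from 0.019 to 0.049, and that in Nrde2-KO exp2 was -0.57 without WT replicate 2 (adjusted p = 0.013). The change in Mtrex-KO minus that in Nrde2-KO exp2 was -0.45 (limma adjusted p = 0.041), short of the threshold. In Nrde2d200, Actl6a held 165 and 147 CPM against 203 and 239 in Nrde2-WT, a log2 fold change of -0.50 (limma adjusted p = 0.0104). In Nrde2-D174R it was -0.18 (limma adjusted p = 0.47).

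**Figure D3:**
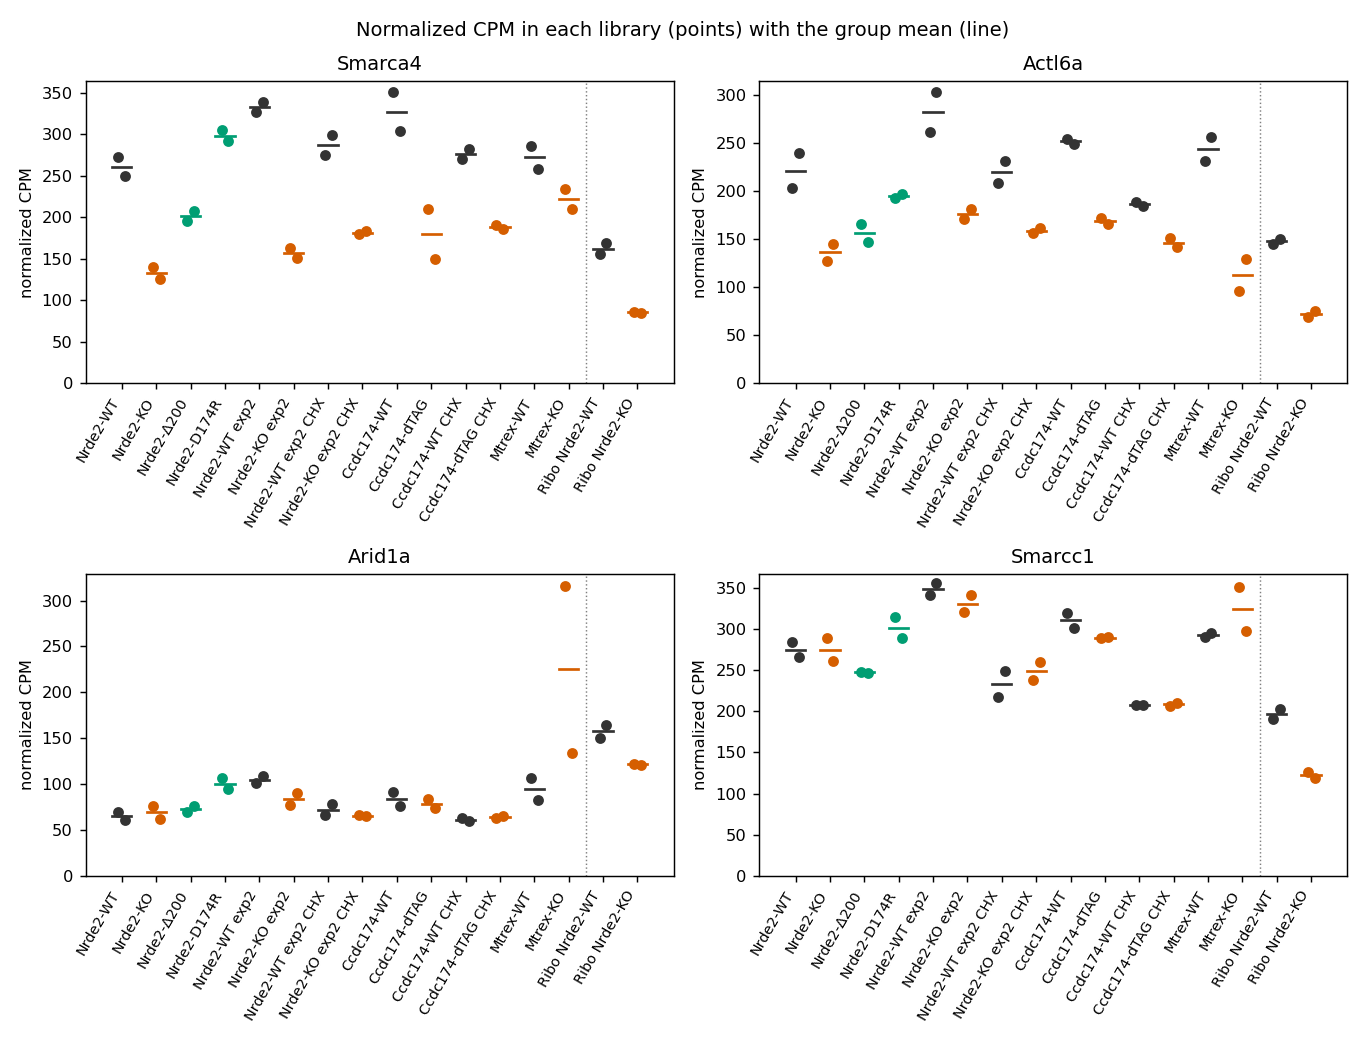
Normalized CPM of Smarca4, Actl6a, Arid1a and Smarcc1 in each library (points) with the group mean (line), for 14 RNA-seq groups and, right of the dotted line, 2 Ribo-seq groups; colours as black for WT, green for mutants and orange for depleted groups. Smarca4 and Actl6a are lower in every depleted group than in its WT group, while a single Mtrex-KO library, at 316 CPM, carries the highest Arid1a value.

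The core subunits Smarcc1, Smarcb1 and Smarce1, and Dpf2, a reader of histone acetylation, did not pass the threshold in any depletion by RNA-seq without CHX. Smarcc1 was at 341 and 355 CPM in Nrde2-WT exp2 and at 320 and 342 in Nrde2-KO exp2. Smarcb1 was at 114 and 117 CPM against 116 and 113. Their groups overlapped, and the 95% intervals of the log2 fold changes were -0.26 to 0.11 for Smarcc1 and -0.19 to 0.17 for Smarcb1. Smarce1 went the other way, from 42.5 and 45.2 to 55.3 and 52.2 CPM, a log2 fold change of 0.29 (limma adjusted p = 0.038). Dpf2 differed by between 0.10 and 0.19 in the 3 depletions, with limma adjusted p of 0.029 or above.

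Arid1a, which encodes a subunit with an ARID DNA-binding domain, was the only member that changed upwards in a depletion without CHX. It was at 107 and 82.5 CPM in Mtrex-WT and at 316 and 134 in Mtrex-KO, a log2 fold change of 1.13 (SE 0.25, limma adjusted p = 0.00068). The Mtrex-KO libraries differed more than 2-fold from each other, and the value was 0.51 without Mtrex-KO replicate 1 (adjusted p = 0.011), 1.75 without Mtrex-KO replicate 2 and 0.94 without Mtrex-WT replicate 2 (adjusted p = 0.014). Mtrex-KO replicate 1 also held the larger sum of 2C-like markers (202 against 67.4 CPM) and the smaller share of reads in genes (72.1% against 82.7%), and their part in the Arid1a value was not tested. In Nrde2-KO exp2, Arid1a was at 77.2 and 90.6 CPM against 101 and 108, a log2 fold change of -0.32 (limma adjusted p = 0.35), and it differed from the Mtrex-KO change by 1.45 (SE 0.35, limma adjusted p = 0.0026), or 0.83 without Mtrex-KO replicate 1 (adjusted p = 0.0035) and 1.27 without Mtrex-WT replicate 2 (adjusted p = 0.017). That difference was also lost without Nrde2-WT exp2 replicate 2 (adjusted p = 0.011), without Nrde2-KO exp2 replicate 1 (0.014), without the filter on low values (0.014) and in the smaller fit (0.022).

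Read against all genes, 3 of the 10 members changed in Nrde2-KO exp2, all downwards. Of all genes 18.7% changed in either direction and 11.3% downwards. The group was chosen for the fall of Smarcd3, which is among these 3, so this share is not a separate result. In Ccdc174-dTAG the same genes, Smarcd3, Smarca4 and Actl6a, were the 3 that changed, where 5.59% of all genes changed and 4.45% did so downwards. The calls of Smarcd3 and Actl6a there hang on single libraries, as given above. In Mtrex-KO 4 of 10 changed, 3 down and 1 up, against 55.9% of all genes in either direction and 27.4% downwards. The members' share in either direction was thus not above the background there, and their downward share was near it. No member changed in Nrde2d200 or Nrde2-D174R against Nrde2-WT, where 7.49% and 0.396% of genes did. At an unadjusted p under 0.05 limma counted 4 members in Nrde2d200 and 2 in Nrde2-D174R. DESeq2 at its adjusted p under 0.01 counted 2 and 0. Here and below, no share of all genes is given for unadjusted p or for other tools. Those counts are therefore not to be read against the background. Between the mutants 1 of 10 changed (background 4.24%). The difference between Mtrex-KO and Nrde2-KO exp2 passed for 3 members (Smarcd1, Smarca4 and Arid1a; background 34.5%) and that between Ccdc174-dTAG and Nrde2-KO exp2 for none (background 1.07%; 2 members at an unadjusted p under 0.05, and none in edgeR or DESeq2). The median log2 fold change of the members was -0.31 in Nrde2-KO exp2, -0.09 in Ccdc174-dTAG and 0.01 in Mtrex-KO, against medians of all genes between -0.00 and 0.02. On the CPM as deposited all genes of Mtrex-KO shift by -0.40, and Smarcd1, Smarcb1, Smarcc1, Smarce1 and Dpf2 then turn from values above 0 to values below 0, none past 0.01.

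**Figure D4:**
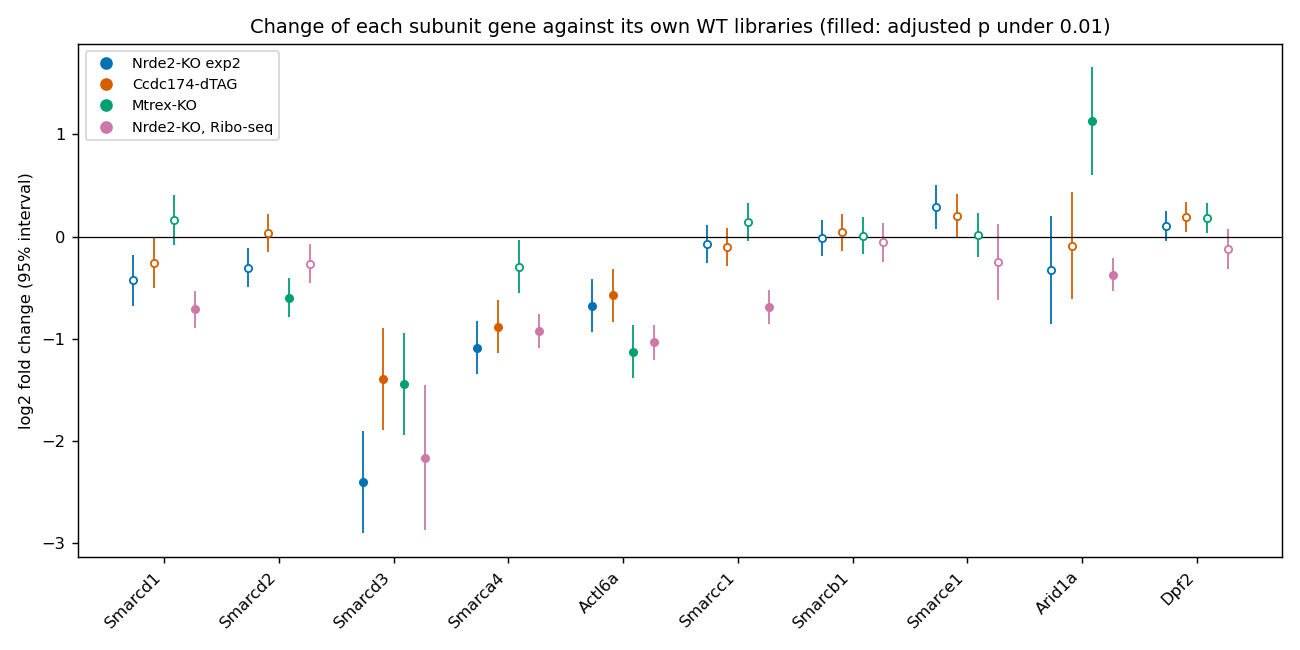
Log2 fold change (points) with its 95% interval (lines) of each gene against its own WT libraries in 4 comparisons; filled points have a limma adjusted p under 0.01. Smarcd3 lies lowest in each comparison, from -2.40 to -1.40, Actl6a is filled in all 4, and Arid1a alone is filled above 0, at 1.13 in Mtrex-KO.

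In cells given CHX, where the part of nonsense-mediated decay was not tested, Smarcd3 was also low after depletion. It held 12.4 and 14.9 CPM in Nrde2-WT exp2 CHX and 2.87 and 3.31 in the libraries labelled Nrde2-KO exp2 CHX. It held 5.94 and 4.68 CPM in Ccdc174-WT CHX and 2.55 and 1.92 in Ccdc174-dTAG CHX. The depleted libraries again lay below their WT libraries. The Nrde2 lines with CHX may also have been in view when the genes were chosen, so their test is not separate support. The log2 fold changes were -2.05 (SE 0.18, limma adjusted p = 1.2e-05) and -1.16 (SE 0.18, limma adjusted p = 0.0014). The second was -0.98 without dTAG CHX replicate 2 (adjusted p = 0.015) and -0.9998 without WT CHX replicate 1 (adjusted p = 0.012), so each decides that call. The change with CHX minus that without was 0.35 in the Nrde2 lines (95% interval -0.37 to 1.07, limma adjusted p = 0.69) and 0.23 in the Ccdc174 lines (-0.48 to 0.95, limma adjusted p = 0.89). CHX itself left Smarcd3 at 0.04 (-0.46 to 0.55) in Nrde2-WT and at 0.00 (-0.50 to 0.51) in Ccdc174-WT, with limma adjusted p of 0.88 and 0.99, or at 0.25 and 0.23 on the CPM as deposited.

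Smarca4 was at 276 and 299 CPM in Nrde2-WT exp2 CHX and at 180 and 183 in Nrde2-KO exp2 CHX, or -0.66 (SE 0.05, limma adjusted p = 5.9e-06), and fell by 0.55 in Ccdc174-dTAG CHX (limma adjusted p = 8.0e-05). Actl6a fell by 0.47 and 0.35 (limma adjusted p = 0.00013 and 0.0025). Smarcd2 fell by 0.29 in Nrde2-KO exp2 CHX (limma adjusted p = 0.00067), from 78.6 and 75.3 to 63.0 and 62.5 CPM. Dpf2 rose in Ccdc174-dTAG CHX, from 49.4 and 48.6 to 63.3 and 64.0 CPM, or 0.38 (limma adjusted p = 0.0014). In the Ccdc174 lines with CHX, the call of Dpf2 was lost without either dTAG CHX replicate, and that of Actl6a without dTAG CHX replicate 2 or WT CHX replicate 1. In each experiment 4 of 10 members changed, against 27.8% of all genes in the Nrde2 lines and 9.05% in the Ccdc174 lines. Smarcd3, for whose fall the group was chosen, is among them, so the share in the Nrde2 lines is not a separate result. For Smarca4 the change with CHX minus that without was 0.43 (95% interval 0.08 to 0.77, limma adjusted p = 0.22) and 0.33 (-0.02 to 0.67, limma adjusted p = 0.55). No member passed this interaction test in either line, where 0.515% and 0.251% of genes did; unadjusted p was under 0.05 for 1 member in each line, and DESeq2 passed none.

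CHX alone lowered Smarcc1, Smarce1, Arid1a and Actl6a in WT cells of both experiments. Smarcc1 went from 341 and 355 to 217 and 250 CPM in Nrde2-WT exp2 and from 320 and 301 to 208 and 207 in Ccdc174-WT, a log2 fold change of -0.58 in both (limma adjusted p = 6.8e-06 and 6.0e-06). Smarce1 fell by 0.59 and 0.65 (limma adjusted p = 2.7e-05 and 8.7e-06), Arid1a by 0.54 and 0.44 (0.00046 and 0.0021) and Actl6a by 0.36 and 0.43 (0.00080 and 0.00015). Smarcb1 fell by 0.33 in Ccdc174-WT (limma adjusted p = 0.00041). So 4 of 10 members changed in Nrde2-WT exp2 and 5 of 10 in Ccdc174-WT, all downwards, against 47.5% and 49.5% of all genes in either direction and 22.4% and 24.1% downwards. On the CPM as deposited, where all genes shift up by 0.21 and 0.23, the calls of Actl6a were lost in both lines and those of Smarcb1 and Arid1a in Ccdc174-WT. The calls of Actl6a and Arid1a in Nrde2-WT exp2 were also lost without CHX replicate 1, that of Actl6a without replicate 2 of the cells without CHX, and that of Arid1a in Ccdc174-WT without WT replicate 1 or CHX replicate 2.

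**Figure D5:**
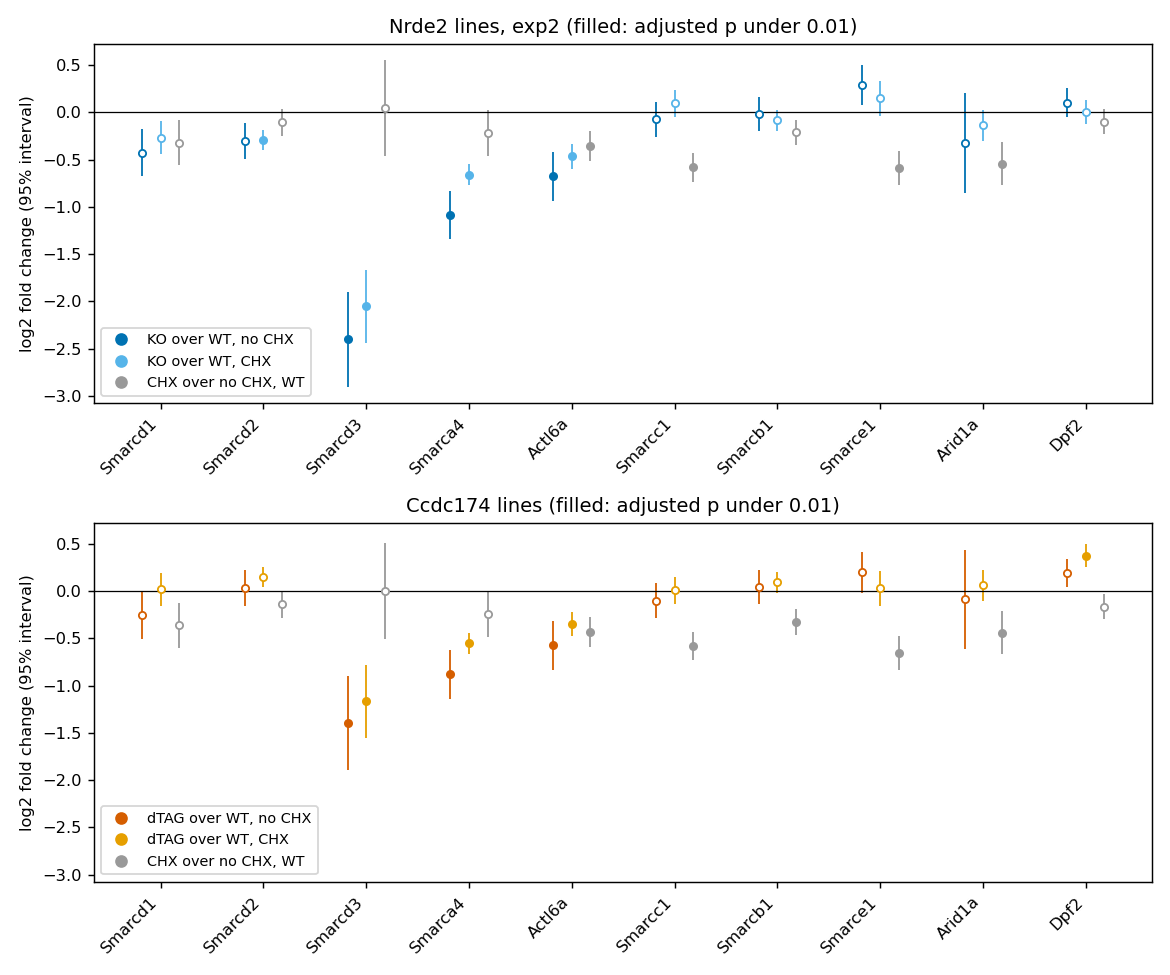
Log2 fold change (points) with its 95% interval (lines) of each gene in the Nrde2 lines of the second experiment (top) and the Ccdc174 lines (bottom): depleted over WT without CHX (dark blue or dark orange), depleted over WT with CHX (light blue or light orange) and CHX over no CHX in WT cells (grey); filled points have a limma adjusted p under 0.01. Smarcd3 is low in the depleted cells with and without CHX and near 0 for CHX itself.

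Ribosome profiling, where a read is a fragment protected by a ribosome, may also have been in view when the genes were chosen. In it, Smarcd3 had 34 and 36 reads in Nrde2-WT and 5 and 6 in Nrde2-KO. These are 4.44 and 4.81 normalized CPM against 0.90 and 0.78, 18.2% of the WT mean. The log2 fold change was -2.16 (SE 0.34, 95% interval -2.87 to -1.45, limma adjusted p = 4.4e-05), and counts this low leave a wide interval. Relative to the RNA of the second experiment it differed by 0.24 (-0.48 to 0.96, limma adjusted p = 0.69), so a change in footprints beyond the change in RNA was not detectable at this depth.

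Footprints of other members fell as well. Smarca4 was at 155 and 170 CPM in Nrde2-WT and at 86.5 and 84.4 in Nrde2-KO (log2 fold change -0.92, limma adjusted p = 3.6e-08), and Actl6a at 145 and 150 against 69.1 and 74.9 (-1.03, limma adjusted p = 1.0e-08). Smarcd1 was at 79.6 in both WT libraries against 48.2 and 48.9 (-0.71, limma adjusted p = 2.4e-06), Smarcc1 at 191 and 203 against 126 and 118 (-0.69, limma adjusted p = 9.3e-07), and Arid1a at 150 and 165 against 122 and 121 (-0.37, limma adjusted p = 0.00092). In none of these did WT and knockout libraries overlap. Of the 10 members 6 changed, all downwards, beside a background of 25.2% in either direction and 14.2% downwards. The group was chosen for the fall of Smarcd3 in Nrde2 knockout, so this share is not a separate result. On the CPM as deposited, where all genes shift by 0.15, the value of Arid1a was -0.22 (adjusted p = 0.27).

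Smarcc1 was the member whose footprints and RNA parted. Its RNA was at 341 and 355 against 320 and 342 CPM, while its footprints fell by 0.69, and the difference of the changes was -0.61 (SE 0.11, 95% interval -0.86 to -0.37, limma adjusted p = 0.0062; 1 of 10 members, background 3.46%). The adjusted p lay between 0.013 and 0.031 without any one of 7 of the 8 libraries, and at 0.059 on the CPM as deposited, so the call is near the threshold. Values were -0.54 for Smarce1 (limma adjusted p = 0.052), on 46 to 73 footprint reads per library, and between -0.36 and 0.24 for the rest.

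Of 21 further BAF, PBAF and ncBAF subunit genes, 17 were measured without CHX. In Nrde2-KO exp2 3 of them fell, in Ccdc174-dTAG 1 fell, and in Mtrex-KO 4 fell and 3 rose. Medians were -0.21, -0.07 and 0.15. Of all genes 11.3%, 4.45% and 27.4% fell, and 28.5% rose in Mtrex-KO, so the rises were not above that share. Of 18 with footprints 3 fell (median -0.27), against 14.2% of all genes. Smarca2 (BRM), the alternative ATPase, rose in Mtrex-KO from 2.00 and 2.25 to 9.84 and 12.9 CPM (log2 fold change 2.28, limma adjusted p = 7.6e-08), where Smarca4 was at -0.29 (limma adjusted p = 0.043), or at -0.69 (adjusted p = 8.9e-05) on the CPM as deposited. Of 52 genes of other remodellers (ISWI, CHD and NuRD, INO80, SRCAP and TIP60), 12 fell and 1 rose in Nrde2-KO exp2. In Ccdc174-dTAG 1 fell, and in Mtrex-KO 15 fell and 11 rose. Medians were -0.16, -0.07 and -0.04. The shares of all genes that fell are those above. Of all genes 7.44% rose in Nrde2-KO exp2 and 28.5% in Mtrex-KO, so the rises were not above these shares. Remodeller genes that fell past a log2 fold change of 1 were Mta1, a NuRD subunit, in Nrde2-KO exp2 (-1.32, limma adjusted p = 0.00013), and Trrap, the scaffold of TIP60 and SAGA, in Ccdc174-dTAG (-1.20, limma adjusted p = 2.4e-05). Ino80d and Gatad2b, of INO80 and NuRD, rose by 1.19 and 1.16 in Mtrex-KO (limma adjusted p = 1.5e-07 and 0.00019). Among footprints 20 of the 52 fell (median -0.30; 14.2% of all genes), with Mta1 at -1.56, Chd3 at -1.25 and Trrap at -1.08. With CHX, Smarca1, an ISWI ATPase, fell past 1 in Nrde2-KO exp2 (-1.03, limma adjusted p = 2.7e-05).

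Over the 14 RNA-seq group means of log2(normalized CPM + 0.25), the genes most like Smarcd3 among 13455 others were Slc4a3 (Pearson r = 0.95), Bckdha (0.94), Pold1 (0.93), Ubr7 (0.93) and Plcb3 (0.93). They encode an anion exchanger, a subunit of branched-chain keto acid dehydrogenase, the catalytic subunit of DNA polymerase delta, a ubiquitin-protein ligase family member and a phospholipase C. Of these, Slc4a3 has a level near that of Smarcd3, 5.70 and 5.09 CPM in Nrde2-WT and 2.44 and 3.17 in Nrde2-KO. Among the members Smarca4 was the most like Smarcd3 (r = 0.82, rank 112), then Actl6a (0.72, rank 352) and Smarcd1 (0.50, rank 1387), and Smarce1 the least (-0.40). These values describe 14 groups that share WT lines and experiments. Among the groups are Nrde2-WT and Nrde2-KO, the comparison taken as the one that chose the genes, so the likeness is not a separate result.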

How the data were processed

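RNA-seq of rRNA-depleted total RNA (28 libraries) and Ribo-seq of Benzonase footprints (4 libraries) were used; cross-linking libraries were not used here. For the deposited tables, alignment by the authors used STAR 2.7.3a, mm10 and GENCODE M23, and featureCounts gave uniquely mapped, correctly stranded reads per gene. The deposited values are CPM (counts scaled to a fixed library total) per gene and library. All values gave whole reads (within 0.001 of a read), and 72.1% to 92.1% (RNA-seq) or 61.4% to 66.8% (Ribo-seq) of the reads the authors divided by lie in the listed genes. Gene names came from GENCODE M21 (55154 of 55335 IDs matched).

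CPM were divided by median-of-ratios factors, 1 set per assay. Genes averaging 0.5 CPM or more were fitted on log2(CPM / factor + 0.25) with limma 3.58.1 (trend, empirical Bayes, 1 mean per group): 20 libraries without CHX (14889 genes), 8 with CHX (15476), 16 for CHX effects (15133), 4 Ribo-seq (13857) and 8 for Ribo-seq against RNA-seq of the second Nrde2-KO experiment (14530). Fold changes are on that scale. Fitting was tested on simulated data. Smarcd3 is given in every group, other members where adjusted p was under 0.01 (otherwise by range or as examples), list genes past a log2 fold change of 1 as well, and the 5 genes most like Smarcd3. The members and gene lists were chosen with earlier results of these data known. Alternatives were other added constants (0.1, 1), no filter or a mean of 1 CPM, CPM as deposited, edgeR 4.0.16 and DESeq2 1.42.0 on the recovered reads, a replicate block, smaller fits and leaving out each library. The result of 1 list of cell type markers is not reported here.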

Additional observations from a re-analysis of the deposited data

Results flagged for a closer look

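The effect on 4 members differed between groups. Relative to Nrde2-KO exp2, the change in Mtrex-KO differed by 0.59 for Smarcd1, by 0.79 for Smarca4 and by 1.45 for Arid1a on the log2 scale (limma adjusted p = 0.0075, 0.0012 and 0.0026). On the CPM as deposited the values of Smarcd1 and Smarca4 were 0.14 and 0.34 (adjusted p = 0.49 and 0.12), that of Arid1a was 1.004 (adjusted p = 0.0060), and Smarcd2, Smarce1 and Actl6a passed instead, at -0.74, -0.72 and -0.90. The call of Smarcd1 was lost without any one of 6 of the 8 libraries, and that of Smarca4 held without any one of them. The call of Arid1a was lost without any one of 3 of the 8 libraries. For Smarcc1 the change in Nrde2-KO footprints differed from that in RNA by -0.61 (limma adjusted p = 0.0062).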

How the results depend on the processing

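Smarcd3 kept its direction in every depletion under all alternatives run, and values are limma log2 fold changes with adjusted p unless another tool is named. The labels tie same-numbered libraries to no shared culture or day, and 2 numbers per group are too few to show a pairing. Deviations of same-numbered libraries from their group means correlated over 13219 genes between -0.06 and 0.34 in the first Nrde2 experiment, 0.14 and 0.42 in the second and 0.21 and 0.43 in the Ccdc174 lines, and at 0.45 in the Mtrex lines and -0.02 in Ribo-seq. With the replicate number as a block, 6 members changed in Nrde2-KO exp2, 3 in Nrde2d200, 2 between the mutants, 5 for Mtrex-KO minus Nrde2-KO exp2 and 0 for footprints minus RNA, while Smarcd3 passed at -0.75 in Nrde2d200 (0.0067) and at 0.96 for Mtrex-KO minus Nrde2-KO exp2 (0.0049). In DESeq2, Smarcd3 passed in Nrde2d200 (-0.77, 0.0094), 2 members did so there, and CHX in Ccdc174-WT gave -0.011 for Smarcd3. Fitting each comparison on its own groups alone, Smarcd3 was at -0.75 in Nrde2d200 (0.0011) and at -1.40 in Ccdc174-dTAG (0.012), and 3 members changed in Nrde2d200, 1 in Nrde2-D174R, 4 between the mutants, 2 in Mtrex-KO and 1 for Mtrex-KO minus Nrde2-KO exp2. Without the filter, Smarcd3 was at -1.16 in Ccdc174-dTAG CHX (0.018), and 0 members changed between the mutants, 1 for Mtrex-KO minus Nrde2-KO exp2, 1 in Ccdc174-dTAG CHX and 0 for footprints minus RNA. On the CPM as deposited 0 changed between the mutants, 2 with CHX in Ccdc174-WT and 0 for footprints minus RNA. Leaving out each library in turn, Smarcd3 ranged from -0.41 to 0.037 between the mutants, from -0.79 to -0.34 in Nrde2-D174R, from 0.61 to 1.41 for Ccdc174-dTAG minus Nrde2-KO exp2, from 0.74 to 1.18 for Mtrex-KO minus Nrde2-KO exp2, from -1.79 to -0.997 in Ccdc174-dTAG, from -1.35 to -0.98 in Ccdc174-dTAG CHX, from -0.16 to 0.25 and from -0.16 to 0.17 for CHX in Nrde2-WT exp2 and Ccdc174-WT, and from -0.17 to 0.63 for the Ccdc174-dTAG change with CHX minus without. Members changed then numbered 0 between the mutants, 1 to 2 in Ccdc174-dTAG, 1 to 4 in Ccdc174-dTAG CHX and for Mtrex-KO minus Nrde2-KO exp2, 2 to 4 with CHX in Nrde2-WT exp2 and 0 to 1 for footprints minus RNA. A group left with 1 library was assumed to vary like the others, and the causes of these changes were not tested. Shares of all genes under the alternatives are not given, so these counts of members show only how the calls moved. Apart from leaving out libraries, 261 alternative values for Smarcd3 and counts of members kept their direction and side of the threshold or their size. With 2 libraries per group and 5 to 36 Smarcd3 footprints per library, small changes were not detectable.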
